A study of Caenorhabditis elegans with 2 samples.

Results

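The regions described here were among the strongest in the region list of 1 of 2 chromatin immunoprecipitation libraries of the transcription factor HLH-4 and overlapped none of the strongest in the list of the other. The lists hold peaks and background together. They were chosen by the deposited signal value of each region. From each replicate's list of 30000 regions, the strongest were taken, in the number of the authors' optimal peaks, and those that overlapped, by at least 1 bp, none of the strongest regions of the other replicate were kept. This gave 203 regions of replicate 1 (37.2% of its strongest regions) and 207 regions of replicate 2 (38.0%), 410 of the 60000 regions of both lists. The other 342 strongest regions of replicate 1 and 338 of replicate 2 overlapped each other and are called shared below. Because signal values chose the members, ranks and signal values are given as a description, with no test of their own, and where a rank divides the members, the test is of another measure.

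The study measured genome binding of HLH-4 by ChIP-seq in whole first-stage (L1) larvae of Caenorhabditis elegans. The hermaphrodites were of strain OP523, whose genotype is unc-119(tm4063) III with the integrated transgene wgIs523, which makes HLH-4 with a GFP-FLAG tag at its C terminus. They were synchronized by starvation after bleaching and collected 6 hours later, and their age is given as unknown. The immunoprecipitation was with an anti-GFP antibody by the labels' description, while the antibody field names hlh-4, and chromatin was fragmented by sonication with a microtip. Both libraries are biological replicates of this 1 group and every animal carries the transgene, so each test below compares lists of regions, not conditions. The strain has hlh-4 sequence both in the transgene and at its own locus, and chromatin from whole animals mixes all cell types.

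HLH-4 is a basic helix-loop-helix (bHLH) protein of the Achaete-Scute family. Factors of this family pair with an E-protein and bind E-boxes, 6-base sequences that begin with CA and end with TG, and those with G or C at the centre are the usual preference. In the worm, HLH-4 is known for its role in the ADL neurons, a pair of chemosensory neurons that express many chemoreceptors.

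The E-boxes counted here were read on both strands, within 50 bp of each summit. They are CAGCTG, which is its own reverse complement, and CACCTG, which reads CAGGTG on the other strand. Other E-boxes were counted by class only, CACGTG with its centre of C and G among them, and E-box without a class stands below for the counted forms. Of all 30000 regions, 6.00% held such an E-box in the list of replicate 1 and 5.92% in that of replicate 2. The sequences below run from 50 bp before to 50 bp after the summits of the strongest members of each set with and without a counted E-box, from the forward strand of WBcel235 (the ce11 build) in RefSeq. They leave out windows with an annotated UTR, summits whose central 51 bp occur elsewhere in the genome, and 1 chromosome. Capitals mark the counted E-boxes, and E-boxes of other classes are left in lower case. In replicate 1 the 2 strongest such members with an E-box lay in an intron of ZC404.15 (V:6780750-6780850, rank 73 in replicate 1 and 789 in replicate 2) and 166 bp upstream of F42E11.3 (X:11375725-11375825, ranks 74 and 664). Those without one lay 207 bp upstream of sco-1, a copper chaperone gene of cytochrome c oxidase assembly (II:4299396-4299496, rank 44 in replicate 1 and 2171 in replicate 2), and 1083 bp upstream of Y39A3A.3 (III:2069381-2069481, ranks 98 and 550).
ZC404.15: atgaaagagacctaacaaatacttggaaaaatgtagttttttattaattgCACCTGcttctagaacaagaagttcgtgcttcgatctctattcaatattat
F42E11.3: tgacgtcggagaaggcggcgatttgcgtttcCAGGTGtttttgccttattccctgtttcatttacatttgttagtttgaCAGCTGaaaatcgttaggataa
sco-1: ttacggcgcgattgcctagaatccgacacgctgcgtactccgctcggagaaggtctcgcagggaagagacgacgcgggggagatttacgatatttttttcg
Y39A3A.3: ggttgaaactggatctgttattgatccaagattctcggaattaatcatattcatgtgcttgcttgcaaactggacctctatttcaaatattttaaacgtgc

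In replicate 2 the 2 strongest with an E-box lay 1163 bp upstream of sfrp-1, a gene for a secreted Frizzled-related protein (IV:6403549-6403649, rank 119 in replicate 2 and 708 in replicate 1), and 2739 bp upstream of the neuropeptide gene nlp-60 (IV:8682014-8682114, ranks 149 and 741). Those without one lay in an intron of Y65A5A.2 (IV:16415232-16415332, rank 43 in replicate 2, with no overlapping region in replicate 1) and 83 bp upstream of tos-1, known as a reporter of splicing (V:9344236-9344336, rank 50 in replicate 2 and 2348 in replicate 1), whose sequence holds a CACGTG in lower case.
sfrp-1: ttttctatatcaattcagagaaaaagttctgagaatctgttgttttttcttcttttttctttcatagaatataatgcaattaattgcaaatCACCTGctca
nlp-60: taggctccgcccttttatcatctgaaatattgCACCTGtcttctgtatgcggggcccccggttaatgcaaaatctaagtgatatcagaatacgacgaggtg
Y65A5A.2: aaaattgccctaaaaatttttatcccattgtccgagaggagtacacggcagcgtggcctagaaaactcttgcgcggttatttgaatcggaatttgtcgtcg
tos-1: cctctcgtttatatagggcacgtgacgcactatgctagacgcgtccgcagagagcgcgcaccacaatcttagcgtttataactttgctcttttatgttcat

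Most members came from the lower end of the strongest regions. The 203 regions of replicate 1 ranked from 44 down to the limit with a median of 402, and 163 of them (80.3%) ranked past 272, against 110 of the 342 shared regions (32.2%). The 207 regions of replicate 2 ranked from 43 on with a median of 407, and 168 of them (81.2%) ranked past 272, against 105 of 338 shared regions (31.1%). Only 6 members of replicate 1 and 4 of replicate 2 were among the 100 strongest of their list. The signal value, for which the sources used here state no normalization, ran from 21.3 to 60.3 with a median of 24.2 in the replicate 1 set, against a median of 34.4 and a maximum of 173.3 in its shared regions. In the replicate 2 set it ran from 26.8 to 73.7 with a median of 30.6, against a median of 45.3 and a maximum of 214.9 in its shared regions. Signal values were compared within a list only.

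The limits fell between nearly equal regions. In replicate 1, the last region taken had a signal value of 21.2518 and the next one 21.2516. In replicate 2, these values were 26.8097 and 26.7994. The member nearest the limit in the other list ranked 330 in replicate 1 and was the first past the limit in replicate 2, while the nearest shared region ranked 451 in replicate 1 and 544 in replicate 2. For the replicate 2 set, the nearest member ranked 169 in replicate 2 and 552 in replicate 1, and the nearest shared region ranked 400 in replicate 2 and 539 in replicate 1.

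Most members overlapped a lower-ranked region in the list of the other replicate. Since the lists hold background too, an overlap of 1 bp or more need not mark a peak there. Of the 203 regions of replicate 1, 162 overlapped some region of replicate 2, with ranks there down to 25980 and a median of 1478, and 41 overlapped none. Of the 207 regions of replicate 2, 166 overlapped a region of replicate 1, with ranks from 552 to 29110 and a median of 2089.5, and 41 overlapped none. For 22 members of replicate 1 (10.8%) and 27 of replicate 2 (13.0%), the best overlapping region ranked from 10001 on. The share of all regions that overlap the other list is not given here, so these counts are a description only. Where a region overlapped, the summits of the 2 replicates lay a median of 48 bp apart for the replicate 1 set and 43.5 bp for the replicate 2 set. Few members lay near a strong region of the other replicate, shared or not, and by the rule none overlapped one. Only 12 summits of replicate 1 and 6 of replicate 2 lay within 1000 bp of a summit among the other replicate's strongest regions. Distances to the shared regions of a member's own list are not given here.

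**Figure D1:**
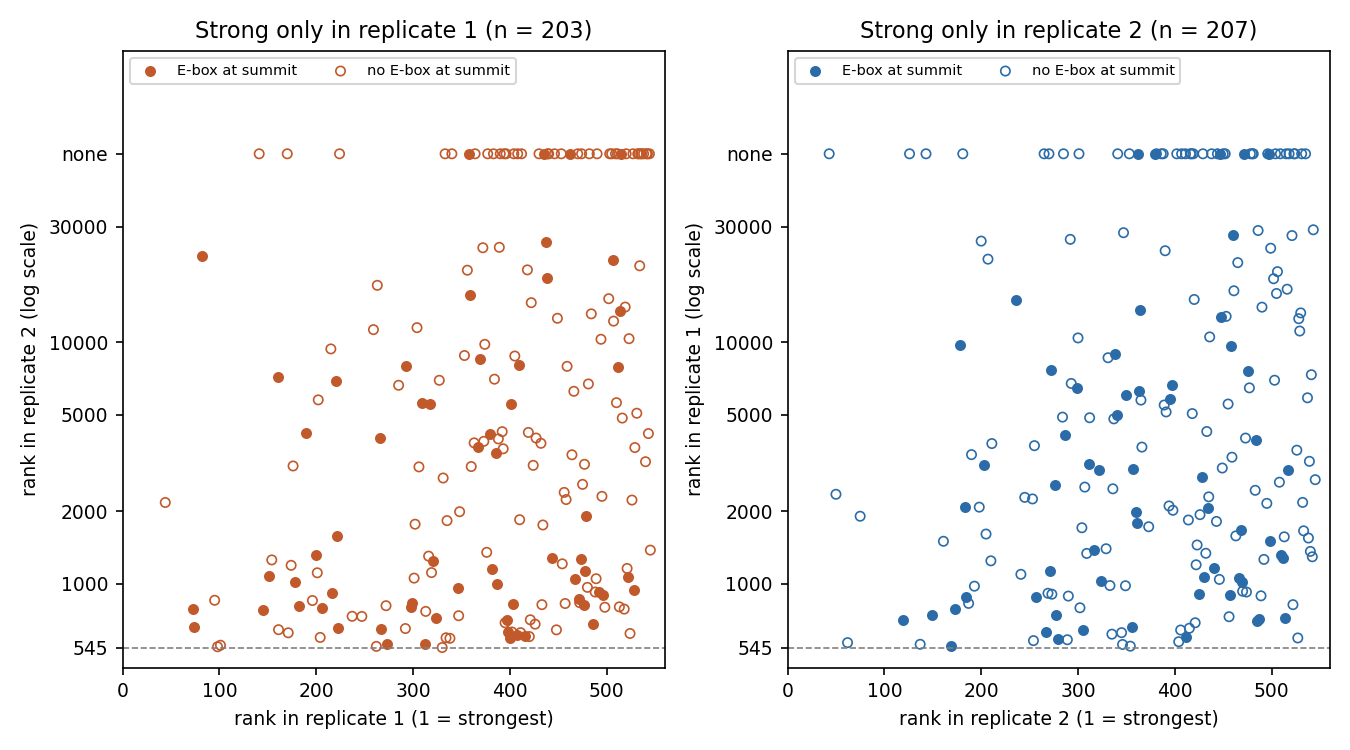
Rank of each member in its own replicate (horizontal axis) and of the overlapping region in the other replicate (vertical axis, log scale, with members that overlap no region at the line marked none), for the 203 regions of replicate 1 and the 207 of replicate 2. Filled points hold CAGCTG, or CACCTG on either strand, within 50 bp of the summit, and the dashed line marks the last rank taken as strongest. Filled points are frequent just above the line and sparse among the 41 members of each set with no overlapping region.

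The authors' optimal peaks, those that passed their irreproducible discovery rate (IDR) step, held 88 of the 203 replicate 1 members (43.3%) and all but 106 of the 207 replicate 2 members (48.8%). They held 340 of 342 shared regions of replicate 1 (99.4%) and 336 of 338 of replicate 2 (99.4%). In the authors' list from the pooled replicates, the members ranked at a median of 622 and 543. No region of the pooled list overlapped 2 members of replicate 1 and 8 of replicate 2, while every shared region overlapped one. These included the strongest member of replicate 2, the Y65A5A.2 intron shown above, at a signal value of 73.7.

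Of those, 1 of replicate 1 and 5 of replicate 2 overlapped no region of the other replicate either. Besides the Y65A5A.2 intron, the 5 of replicate 2 lay 401 bp upstream of pinn-1, a gene for a peptidyl-prolyl isomerase (rank 143), 374 bp upstream of pcn-1, the gene for the replication clamp PCNA (rank 181), 247 bp upstream of Y22D7AL.10 (signal value 36.4) and 1035 bp upstream of mrps-28, a mitochondrial ribosomal protein gene (rank 515). That of replicate 1 lay 229 bp upstream of ndua-2, a gene for a subunit of respiratory complex 1 (rank 511). None of these 6 held an E-box. The other 4 ranked 1159, 620, 2554 and 5491 in the other replicate, and 1 of them, near ins-32, held an E-box. These members were named after their values were seen.

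The E-box shares of both sets were close to each other and below those of shared regions. Of the 203 replicate 1 members, 63 held a counted E-box within 50 bp of the summit (31.0%, 24.7 to 37.9%), and of the 207 replicate 2 members 61 did (29.5%, 23.4 to 36.2%). Intervals are exact Clopper-Pearson 95% intervals and cover counting error over regions only, since the files give no read counts and depth is unknown. The sets differed by 1.57 percentage points, with a 95% interval of the difference from -7.28 to 10.4 points (two-sided Fisher's exact test, adjusted p = 0.75 over 5 comparisons).

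Shared regions held an E-box in 169 of 342 cases in replicate 1 (49.4%, 44.0 to 54.8%) and 178 of 338 in replicate 2 (52.7%, 47.2 to 58.1%). The replicate 1 set differed from its shared regions by -18.4 points (Fisher's exact test, adjusted p = 3.2e-05), and the replicate 2 set from its own by -23.2 points (adjusted p = 2.2e-07 by the same exact test). With the 300 strongest regions of each list, neither difference passed, at -8.09 and -13.4 points (exact test, adjusted p = 0.27 and 0.06). Both sets stood above the lower-ranked regions of their list, those past rank 15000 that overlapped no strong region. An E-box was at 674 of 14956 such summits in replicate 1 (4.51%) and 659 of 14961 in replicate 2 (4.40%), and the differences of 26.5 and 25.1 points had adjusted p = 3e-33 and 1.2e-31 by Fisher's exact test.

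Since members ranked lower in their own list than shared regions, the shares were also compared at like rank. Past rank 272, the replicate 1 set was at 28.2% and its shared regions at 39.1%, a difference that did not pass (Fisher's exact test, adjusted p = 0.083). In replicate 2 the shares were 28.6% and 43.8%, and this difference passed (adjusted p = 0.021 by the same exact test). By narrower bands, members and shared regions were close from there to rank 408, at 35.8% of 67 and 36.2% of 69 in replicate 1 and 35.4% of 65 and 39.4% of 71 in replicate 2. Past rank 408 they stood apart, at 22.9% of 96 and 43.9% of 41 in replicate 1 and 24.3% of 103 and 52.9% of 34 in replicate 2. Members were below shared regions in the upper bands too. At ranks 137 to 272 the shares were 42.4% of 33 and 48.5% of 103 in replicate 1, and 36.4% of 33 and 55.3% of 103 in replicate 2. Up to rank 136 they were 42.9% of 7 and 58.9% of 129 in replicate 1, and 16.7% of 6 and 57.7% of 130 in replicate 2. The bands were not tested.

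**Figure D2:**
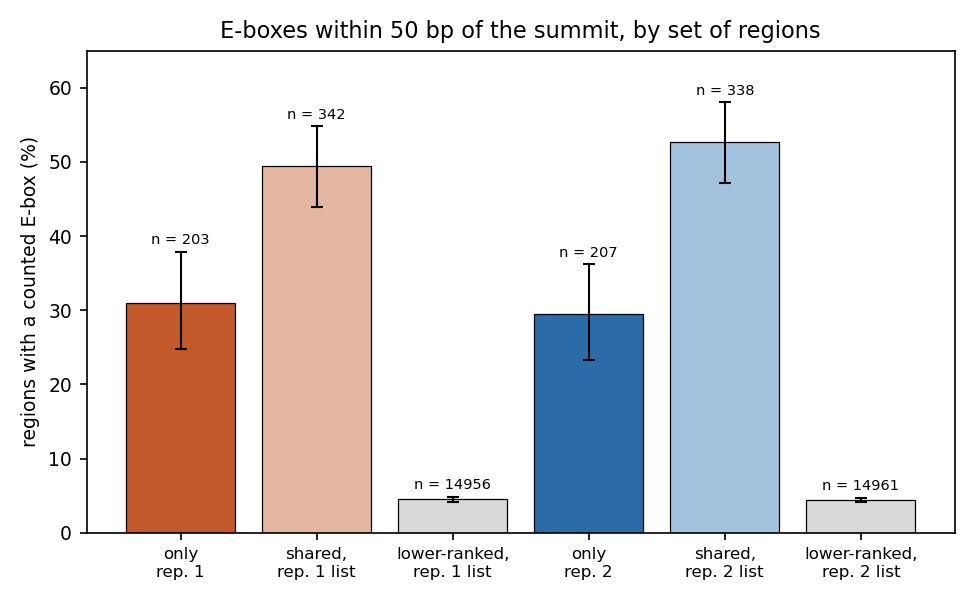
Share of regions with a counted E-box (CAGCTG, or CACCTG on either strand) within 50 bp of the summit (vertical axis, %), for members, shared regions and lower-ranked regions of each replicate's list. Bars show the share and error bars the exact Clopper-Pearson 95% interval over regions. Both member sets, at 31.0% and 29.5%, stand between the shared regions near 50% and the lower-ranked regions under 5%.

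E-boxes were more frequent at the summits of members than beside them. Flanks were read for the member sets only. At windows of the same length centred 300 bp to the left and right, 9 and 13 of the 203 replicate 1 members held an E-box (4.43% and 6.40%), and 12 and 4 of the 207 replicate 2 members (5.80% and 1.93%). The summit share of 31.0% was above both flanks in replicate 1 (two-sided exact sign test over regions, adjusted p = 1.8e-12 and 4e-11), and so was the 29.5% of replicate 2 (adjusted p = 5.4e-11 and 6.6e-15 by the same exact test). The median distance from summit to E-box was 14.5 bp over the 63 replicate 1 members with one and 15.5 bp over the 61 of replicate 2. It was 15.5 bp in the shared regions of both lists, and 23.5 and 22.5 bp in the lower-ranked regions.

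E-boxes, which the rule did not use, were more frequent at members that ranked close behind the limit in the other replicate. In the replicate 1 set, 39 of the 88 members that ranked no lower than 2000 in replicate 2 held an E-box (44.3%), against 24 of the other 115 (20.9%), a difference of 23.4 points (two-sided Fisher's exact test, adjusted p = 0.00085 over both sets). In the replicate 2 set, 30 of 79 such members held one (38.0%), against 31 of 128 (24.2%), a difference of 13.8 points (adjusted p = 0.042 by the same exact test). Among the 41 members of each set with no overlapping region in the other replicate, 4 of replicate 1 (9.76%, 2.72 to 23.1%) and 5 of replicate 2 (12.2%, 4.08 to 26.2%) held an E-box.

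The members close behind the limit came also from higher own ranks, so own rank moved with this split. The median own rank was 346.5 and 345.5 for members in the first bin of the plot of E-box shares by rank in the other replicate, and 453 and 419 for those with no overlapping region. Among members with own ranks past 272, the difference was 24.7 points in replicate 1 (43.5% and 18.8%; Fisher's exact test, adjusted p = 0.0022) and 12.6 points in replicate 2 (36.7% and 24.1%), which did not pass (exact test, adjusted p = 0.11). Between those ends, E-box shares in replicate 1 were 36.4%, 26.9% and 27.3% for the next 3 bins, with upper ends at ranks 2000, 10000 and 30000 in the other replicate. In replicate 2 they were 29.0%, 36.7% and 14.8%, so the order was not the same. The optimal members held an E-box in 41 of 88 cases in replicate 1 (46.6%) and 37.6% of those in replicate 2, 38 regions, and the other members in 22 of 115 (19.1%) and 23 of 106 (21.7%).

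**Figure D3:**
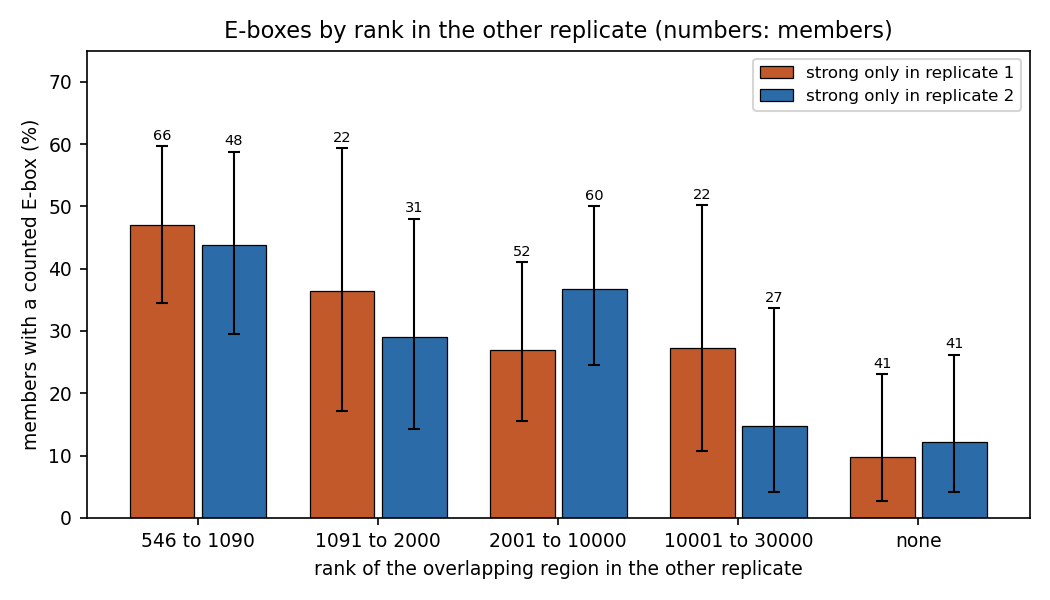
Share of members with a counted E-box at the summit (vertical axis, %) by the rank of the overlapping region in the other replicate (horizontal axis). Bars show the share, error bars the exact Clopper-Pearson 95% interval over regions, and the numbers above them the members in each bin. Members just behind the limit stand at 47.0% and 43.8%, and those with no overlapping region at 9.76% and 12.2%.

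Of the 10 E-box classes, CACCTG, which is read together with its reverse complement CAGGTG, carried most of the difference from shared regions. It was at 43 replicate 1 members (21.2%) against 137 shared regions (40.1%; Fisher's exact test, adjusted p = 5.5e-05 over the 10 classes). In replicate 2 it was at 46 members (22.2%) against 140 shared regions (41.4%; adjusted p = 4.6e-05 by the same exact test). CAGCTG was at 17 replicate 2 members (8.21%), below the 54 shared regions with it (16.0%; exact test, adjusted p = 0.044). In replicate 1 it was at 23 members (11.3%) and 44 shared regions (12.9%), a difference of -1.54 points with an interval from -6.93 to 4.45. CACGTG was at 3 replicate 1 members and 7 replicate 2 members, and with it counted too the shares were 31.5% and 32.4% in the member sets and 52.0% and 55.3% in their shared regions (exact test, adjusted p = 4.1e-06 and 2.8e-07). No class passed between both sets of members, where the smallest adjusted p was 0.84 by Fisher's exact test.

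All 6-base sequences, each read with its reverse complement, were then tested in the same windows. Between the replicate 1 and replicate 2 sets, none passed in either direction by Fisher's exact test (0% called), while 98 had an unadjusted p under 0.05 and the smallest adjusted p was 0.89. Against its shared regions, the replicate 1 set had 1 sequence called lower (0.0481%) and none higher. That sequence was CACCTG (Fisher's exact test, adjusted p = 0.011), and the replicate 2 set gave the same 1 sequence (adjusted p = 0.0095 by the same exact test). Unadjusted, 114 and 122 sequences had a p under 0.05. The sequence with the smallest unadjusted p between both member sets was AGCGCG, at 2 replicate 1 members and 17 replicate 2 members, which the adjustment did not pass (Fisher's exact test, adjusted p = 0.89).

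The replicate 2 set was richer in G and C. Mean G+C within 50 bp of the summit was 36.9% (SD 7.97, n = 203) in replicate 1 members and 39.9% (SD 10.4, n = 207) in replicate 2 members. The difference was -2.94 points with a 95% interval from -4.73 to -1.15 (permutation test of the means over regions with 100000 permutations, adjusted p = 0.0026). Shared regions stood between them at 38.8% in both lists. Replicate 1 members differed from these by -1.82 points (permutation test, adjusted p = 0.013). That difference was 1.08 points with the 300 strongest regions and 0.588 points within 150 bp of the summit, both in the other direction, and -1.45 points with no overlap among the other list's 2000 strongest, and none of these 3 passed (permutation test, adjusted p = 0.36, 0.24 and 0.13). Replicate 2 members were 1.12 points above their shared regions, which did not pass (permutation test, adjusted p = 0.15, 95% interval -0.527 to 2.76).

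The sets differed most at the GC-rich end. More than 50% G+C was found at 38 replicate 2 members (18.4%) and 13 replicate 1 members (6.40%), against 34 (9.94%) and 30 (8.88%) of the shared regions in the lists of replicate 1 and 2. The medians were closer, at 36.6% and 38.6%. Lower-ranked regions had less G and C, at means of 33.9% and 33.3%, and both sets were above them (permutation test, adjusted p = 2.5e-05 for each, from p = 1e-05, the smallest that 100000 permutations can give). The difference between both sets depended on how many regions and bases were read. It was 0.0286 points with the 300 strongest regions of each list and -1.16 points within 150 bp of the summit, neither of which passed (permutation test, adjusted p = 0.99 and 0.095).

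**Figure D4:**
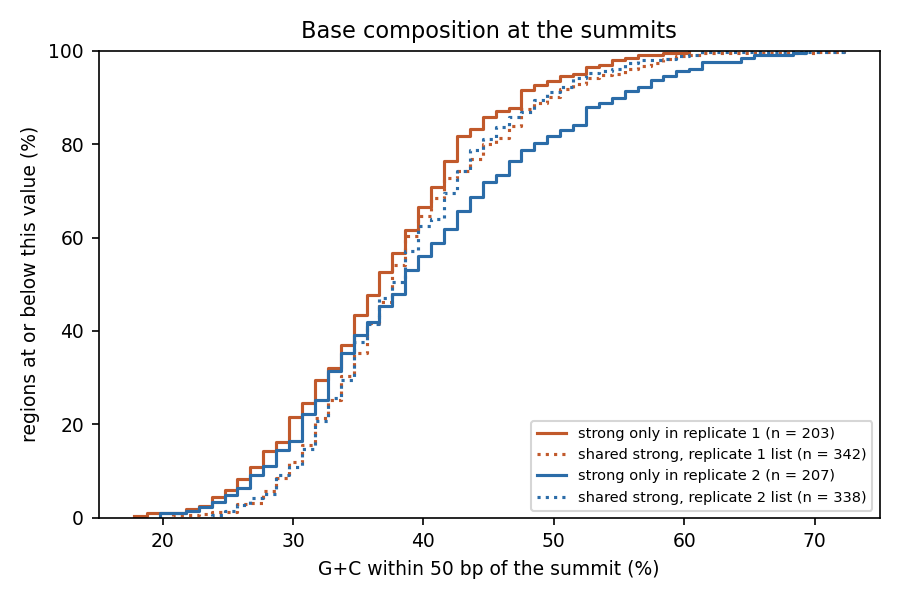
Cumulative share of regions (vertical axis, %) by G+C within 50 bp of the summit (horizontal axis, %), for the member sets (solid lines) and the shared regions of each list (dotted lines). Above 50% G+C lie 18.4% of the replicate 2 members and 6.40% of the replicate 1 members.

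Replicate 1 members lay in coding exons more often than any other strong regions. Coding exons held 31 of their 203 summits (15.3%), against 14 of 207 in the replicate 2 set (6.76%; Fisher's exact test, adjusted p = 0.024 over 7 features) and 16 of 342 shared regions (4.68%; exact test, adjusted p = 0.00035). With the 300 strongest regions neither difference passed, at 5.24 and 3.43 points (exact test, adjusted p = 0.87 and 0.67). The replicate 2 set and its shared regions, at 3.85%, did not differ past the threshold (difference 2.92 points, interval -0.841 to 7.47; exact test, adjusted p = 0.54). The difference between both member sets did not pass past rank 272, at 16.0% and 8.33% (exact test, adjusted p = 0.11). Nor did it pass when regions counted as shared at an overlap of at least 50% of the region, at 13.9% and 6.98% (exact test, adjusted p = 0.072). Lower-ranked regions were in coding exons in 24.5% and 22.9% of cases.

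Of the 31 coding exon members of replicate 1, 26 ranked past 272, 14 had no overlapping region in replicate 2, 9 were optimal peaks and 8 held an E-box. Those 14 were 34.1% of the 41 replicate 1 members with no overlapping region. Of the 14 in replicate 2, 4 had no overlapping region, 6 were optimal peaks and 3 held an E-box. The strongest in replicate 1 lay in mstr-1 (rank 176), pyk-2, a pyruvate kinase gene (rank 182, with an E-box), K07C11.7 (rank 189, with an E-box), the chemoreceptor gene str-4 (rank 196) and pks-1, a polyketide synthase gene (rank 237). Among the 14 without a region in replicate 2 were egl-21, a carboxypeptidase that processes neuropeptides (rank 439), ftn-1, a ferritin gene (rank 527), myo-3, a body wall muscle myosin (rank 535), and gpa-11, a G protein alpha subunit gene (rank 536). The strongest in replicate 2 lay in C15A11.7 (rank 287, with an E-box), mdt-26, a Mediator subunit gene (rank 304), and npr-32, a neuropeptide receptor gene (rank 347). These host genes were named after their values were seen.

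Intergenic summits showed the reverse. They were 105 of the replicate 1 members (51.7%), against 135 replicate 2 members (65.2%; Fisher's exact test, adjusted p = 0.024) and 224 shared regions (65.5%; exact test, adjusted p = 0.0071). Between both member sets, the call was lost under 4 of the 6 alternatives, with the 300 strongest regions (-4.51 points), with 1000 (-6.34), with sharing at 50% of the region (-12.3) and past rank 272 (-10.4), at adjusted p from 0.066 to 0.87 by the same exact test. Against shared regions it was lost with 300 regions (-4.17 points) and past rank 272 (-9.38), at adjusted p = 0.72 and 0.24 by the exact test. The replicate 2 set and its shared regions, at 65.4%, differed by -0.167 points (interval -8.46 to 7.90). 3′ UTRs held 5 members of each set and 0 of 342 and 1 of 338 shared regions, which passed in replicate 1 (exact test, adjusted p = 0.016) and not in replicate 2 (exact test, adjusted p = 0.22). Introns held 20.2% and 20.8% of members and 22.5% and 22.8% of shared regions, with no difference past the threshold. Lower-ranked regions of replicates 1 and 2 had 35.1% and 35.9% of summits in intergenic sequence and 32.6% and 33.5% in introns. In 3′ UTRs they had 3.86% in both lists, against 2.46% and 2.42% of members. Members against lower-ranked regions were not tested for these features.

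**Figure D5:**
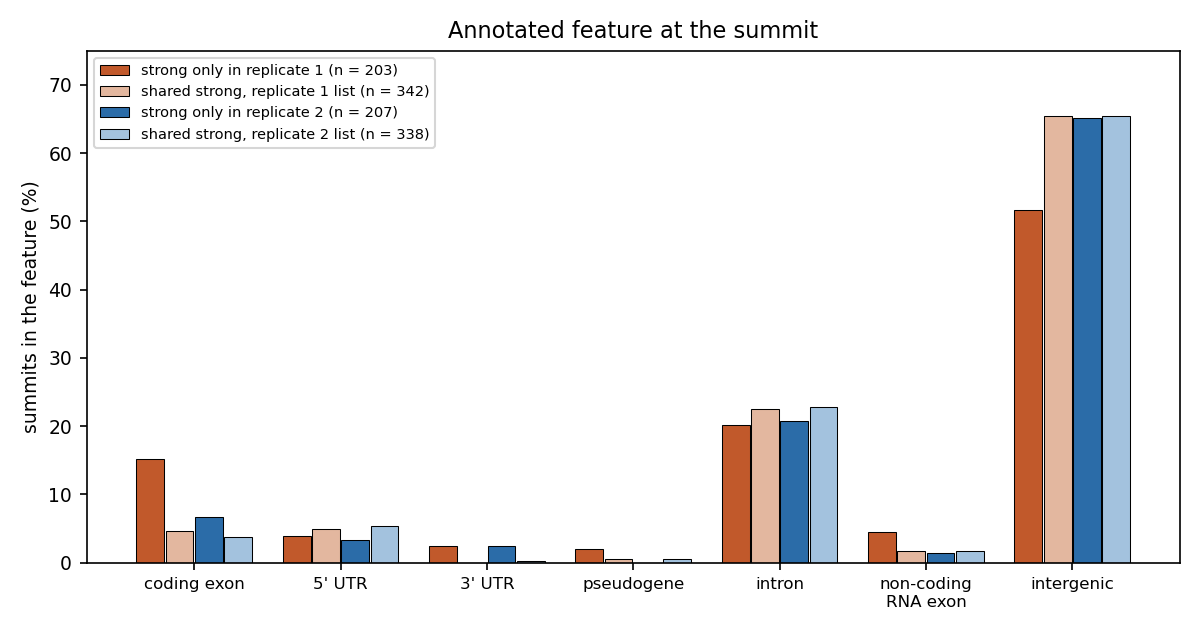
Share of summits in each annotated feature (vertical axis, %), for the member sets and the shared regions of each list. Coding exons hold 15.3% of the replicate 1 members and under 7% in each of the other sets, and intergenic sequence holds 51.7% of them against about 65% elsewhere.

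A summit was taken as in reach of a protein-coding gene start if it was at most 2000 bp upstream or 500 bp downstream, as was the case for 126 replicate 1 members (62.1%) and 111 replicate 2 members (53.6%). The difference of 8.45 points did not pass (interval -1.11 to 17.8; Fisher's exact test, adjusted p = 0.15). Shared regions were at 59.4% and 59.5%, and neither set differed from them past the threshold (exact test, adjusted p = 0.59 and 0.23). Both sets were above lower-ranked regions, at 41.4% and 42.1% (exact test, adjusted p = 2.1e-08 and 0.0027).

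Small non-coding RNA genes were near a larger share of members than of lower-ranked regions. A tRNA, snRNA, snoRNA or rRNA gene lay within 200 bp of 13 replicate 1 summits (6.40%) and 15 replicate 2 summits (7.25%), against 0.682% and 0.662% of those lower-ranked (Fisher's exact test, adjusted p = 1.1e-08 and 2e-10). Shared regions were at 3.51% and 3.25%, and the differences of 2.90 and 3.99 points did not pass (exact test, adjusted p = 0.17 and 0.065, intervals -0.745 to 7.39 and 0.248 to 8.58). By type, 4 and 7 of these members lay at tRNA genes, 3 and 3 at snRNA genes, which serve splicing and trans-splicing, and 6 and 5 at snoRNA genes, which guide RNA modification. Of the 13 in replicate 1, the strongest ranked 215 and lay 67 bp from the snoRNA gene Y75B12B.12. The strongest in replicate 2 ranked 200 and lay 62 bp from the snRNA gene R07E5.16. Summits whose central 51 bp occur more than once in the genome were rare, 1 in replicate 1 (at rps-24) and 5 in replicate 2, and no comparison of them passed.

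By chromosome, no difference between both member sets passed. Chromosome V held 43 replicate 1 members (21.2%), below the 119 shared regions on it (34.8%; Fisher's exact test, adjusted p = 0.0057 over the 6 chromosomes). It held 56 replicate 2 members (27.1%) and 116 shared regions (34.3%), which did not pass (exact test, adjusted p = 0.26, interval of the difference -14.9 to 0.793 points). Of the lower-ranked regions, 21.3% and 20.4% lay on it in replicates 1 and 2. The replicate 1 members were thus near that share, and the shared regions were above it. Chromosome V carries many chemoreceptor genes, and a link of these to the shares was not tested.

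The rule keeps regions that do not overlap the other replicate's strongest, so a gene is in both sets only where members that do not overlap share its start. With each summit given to the nearest protein-coding start in reach, the replicate 1 set named 125 genes and the replicate 2 set 109. Only Y17D7C.6 was in both, 0.800% of the former and 0.917% of the latter. Over all regions, which named 9659 genes in replicate 1 and 9601 in replicate 2, 5732 genes were in both lists (59.3% and 59.7%). The share in common depends on how many genes are named, so it cannot be set against that of the far smaller member sets. Of the 201 genes of shared regions, 7 were also among the 125 (5.60%) and 4 among the 109 (3.67%).

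Chemoreceptor genes, the G protein-coupled receptors of chemosensory neurons, were the only list with more than 2 genes in a set. They were 12 of the 125 genes of replicate 1 (9.60%) and 12 of the 109 of replicate 2, against 19.5% and 19.6% of the genes of shared regions and 7.66% and 7.20% of the genes with a region of any strength. Gene lists were not tested. In replicate 1 the 4 strongest were sre-42 (rank 145 in replicate 1 and 783 in replicate 2, summit 58 bp upstream of the start, with an E-box), srz-29 (ranks 220 and 6899, 132 bp upstream, with an E-box), srh-148 (rank 330 and the first past the limit, no E-box) and srh-266 (ranks 331 and 2741, no E-box).

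In replicate 2 the 4 strongest chemoreceptor members were srh-174 (rank 267 in replicate 2 and 633 in replicate 1, 61 bp upstream), str-230 (ranks 277 and 745, 173 bp upstream), str-264 (ranks 299 and 6465, 22 bp upstream) and srz-47 (ranks 333 and 985, 110 bp upstream). The first 3 held an E-box and srz-47 did not. The start of str-264 was reached by 2 members, which overlapped the same region of replicate 1. Over all chemoreceptor members, 6 of 12 in replicate 1 and 8 of 13 in replicate 2 held an E-box, and 1 in each set had no overlapping region in the other replicate.

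The strongest members with a gene start in reach lay at genes of varied function. In replicate 1 the 10 strongest were at sco-1 (signal value 60.3), ZC404.15 (51.7), F42E11.3 (51.6), T01B7.13 (49.8), Y39A3A.3 (46.4), rps-24, a ribosomal protein gene (45.4), dnj-9, a J-domain co-chaperone gene (39.0), sre-42 (38.3), T09F3.4 (37.6) and scrm-4, a phospholipid scramblase gene (36.5). They ranked from 44 to 161 in replicate 1. In replicate 2 they ranked between 550 and 22753, the latter at T01B7.13, and the dnj-9 region had no counterpart. ZC404.15, F42E11.3, T01B7.13 and sre-42 held an E-box and the other 6 did not.

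In replicate 2 the 10 strongest were at tos-1 (signal value 71.0), C53B4.3 (66.5), rps-1, a ribosomal protein gene (62.5), sfrp-1 (54.5), K11D12.14 (52.9), Y32H12A.1 (51.2), pinn-1 (50.1), mrps-35, a mitochondrial ribosomal protein gene (47.5), R05G6.1 (46.4) and hlh-4 (45.9). Of these, K11D12.14 and pinn-1 had no counterpart in replicate 1, and the others ranked there between 563 at Y32H12A.1 and 9765 at hlh-4. Only sfrp-1, R05G6.1 and hlh-4 held an E-box.

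The gene of the factor itself was strong in replicate 2 alone. The summit of the replicate 2 region lay 14 bp upstream of the start of hlh-4, at rank 178 and a signal value of 45.9. The overlapping region of replicate 1 had its summit 10 bp downstream of the start, at rank 9765 and a signal value of 10.5, and held the E-box too. Replicate 1 had a stronger region inside the gene, 686 bp downstream of the start, at rank 621, without an E-box. Signal at the gene and in the transgene cannot be told apart. Within 20000 bp of the start there was 1 member of each set, that of replicate 1 at rank 421 and 12357 bp away, and no shared region. No member lay within 20000 bp of the start of unc-119, the other locus named in the genotype.

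Other lists had at most 2 genes in a set. A single gene was 0.800% of the 125 genes of replicate 1 and 0.917% of the 109 of replicate 2. For 2 genes these shares were 1.60% and 1.83%. Among genes with a region of any strength in replicates 1 and 2, ribosomal proteins were 0.362% and 0.448%. Translation factors were 0.248% and 0.260% of these genes, and chaperones 0.321% and 0.323%. Ribosomal proteins had rps-24 in replicate 1 (rank 558 in replicate 2) and rps-1 in replicate 2 (rank 75 there and 1905 in replicate 1), both without an E-box. Translation factors had 1 subunit gene of eIF3 in each, eif-3.E (rank 319) in replicate 1 and eif-3.B (rank 331) in replicate 2, and chaperones had dnj-9 (rank 141) and hsp-3, an endoplasmic reticulum Hsp70 gene (rank 366). None of these 4 held an E-box.

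Nuclear hormone receptors, ligand-gated transcription factors, had nhr-6 in replicate 1 (rank 178 and 1016 in the other) and nhr-254 and nhr-188 in replicate 2 (ranks 203 and 471), and all 3 held an E-box. Neuropeptide genes had nlp-63 in replicate 1 (rank 386, with an E-box) and nlp-60 and the insulin-like gene ins-16 in replicate 2 (ranks 461 and 522, neither with one). The member 783 bp upstream of nlp-60 is separate from the stronger one at 2739 bp shown above. Among bHLH genes, hif-1, the hypoxia-inducible factor, joined hlh-4 in replicate 2 (rank 353, no overlapping region in replicate 1, no E-box). The list of genes reported in ADL neurons had osm-9, a TRPV channel gene, in replicate 1 (rank 299 there and 836 in replicate 2, 284 bp upstream, with an E-box). Among genes with a region of any strength in replicates 1 and 2, nuclear hormone receptors were 1.57% and 1.69%. Neuropeptide genes were 0.756% and 0.729% of these genes, bHLH genes 0.228% and 0.229%, and ADL genes 0.0828% and 0.0729%.

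Single members fell to several other lists. Ion channels had osm-9 and lgc-48 (rank 196) in replicate 1, F-box and MATH-BTB adaptors btb-14 (rank 464) and detoxification enzymes cyp-37A1 (rank 347). In replicate 2, cuticle collagens had col-94 (rank 200) and col-62 (rank 287), and ciliary genes had ift-43 (rank 453). Of these, osm-9 and col-62 had an E-box. Some are regions already named above by another gene. The lgc-48 region lay in the str-4 exon, 1283 bp upstream of lgc-48, and the col-62 region in the C15A11.7 exon, 1761 bp upstream of col-62. The col-94 region is that near R07E5.16, 1744 bp upstream of col-94. The cyp-37A1 region lay 1480 bp upstream of cyp-37A1 and 4 bp from the snoRNA gene F01D5.12. Histones, homeobox factors, C-type lectins and proteasome subunits had none in either set.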

How the data were processed

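Per the text deposited with the lists, the authors made each replicate's list of regions, peaks and background together, from that library's alignments and a control, made a further list from the pooled replicates, and derived the optimal peaks from these by IDR. Both replicates name the same control, which was not analysed here. No aligner, peak caller, version, filter or read count is given in the sources used here, and depth is therefore unknown. Each region has a deposited signal value, of unstated normalization, which ranked regions within 1 list only, a deposited −log10 q-value, which was not used, and a deposited summit offset, which gave the summit. Full-width regions span 330 bp in replicate 1 and 340 bp in replicate 2. Positions are 1-based on ce11, with sequence from RefSeq WBcel235 and genes from Ensembl release 115. The ce10 lists served for set sizes only.

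The strongest 545 regions of each list were those with the highest signal values, compared with regions from rank 15001 on. Members, gene lists, tests and the rule for naming genes were chosen with earlier results of these data known. The rule names, for each set, the genes at the 10 strongest members with a protein-coding start in reach (from 2000 bp upstream to 500 bp downstream of it), up to 4 genes per list, the members closest to the start of hlh-4, and 6-base sequences past the threshold. A summit in several features counted as coding exon first, then as UTR (5′ before 3′), pseudogene, intron, exon of a non-coding RNA, and otherwise intergenic. Two-sided Fisher's exact tests compared shares, an exact sign test summits and flanks, and 100000 permutations G+C, with Benjamini-Hochberg adjustment within each family at a threshold of 0.05. Intervals of a difference of shares are Newcombe's, and those of means a normal approximation. Regions are not replicates of a library, and neighbouring regions or related genes were counted as independent, so p-values compare lists of regions only. The scripts (Python 3.11.15, scipy 1.17.1, numpy 2.4.6, pandas 2.3.3, matplotlib 3.10.9) were tested on simulated data. Alternatives covered the number of strongest regions, the overlap, the own rank, the windows, the lower-ranked list and the genome build. Those for coding exon and intergenic shares, those without coding exons or E-boxes, the count with CACGTG and the split of E-boxes past own rank 272 were added with the data in view. The sequence at 1 region is not reported here.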

Additional observations from a re-analysis of the deposited data

How the results depend on the processing

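Of 275 alternative values, 214 kept the direction and the side of the threshold, or stayed within 1.5 times for counts, and 29 changed direction, 24 of them in differences that passed the threshold in neither setting. Set sizes for replicates 1 and 2 became 96 and 97 with the 300 strongest regions, 521 and 519 with 1000, and 115 and 128 with no overlap among the other list's 2000. With 300 regions, the E-box differences from shared regions were -8.09 and -13.4 points and did not pass, coding exon differences were 5.24 points between sets and 3.43 for replicate 1 against shared, intergenic ones -4.51 and -4.17, and small RNA genes in replicate 2 against shared were 5.74 and passed. G+C differences turned to 0.0286 between sets and 1.08 for replicate 1 against shared. With 1000 regions, promoter differences from shared regions were -9.18 in replicate 1, a reversed direction, and -8.77 in replicate 2, and both passed. Those of replicate 2 also passed for coding exons (7.53), intergenic summits (-12.2) and, reversed, G+C (-2.10), while differences between sets lost the call for intergenic summits (-6.34) and G+C (-0.788). Past rank 272, calls were lost for E-boxes of replicate 1 against shared (-10.9), coding exons between sets (7.62) and intergenic summits between sets (-10.4) and against shared in replicate 1 (-9.38). With sharing at 50% overlap, coding exons (6.88) and intergenic summits (-12.3) between sets lost the call, and small RNA genes in replicate 2 against shared (4.41) gained it. With no overlap among the other list's 2000, G+C of replicate 1 against shared was -1.45 and did not pass. Within 150 bp of the summit, G+C was -1.16 between sets, 0.588, reversed, in replicate 1 against shared, and 1.76 in replicate 2 against shared, which passed. A gene window of 5000 bp upstream to 1000 bp downstream took the call from replicate 2 promoters against lower-ranked regions (6.00). Shorter and longer motif windows (25 and 100 bp on each side) left 0 called 6-base sequences in replicate 1 against shared regions. The differences that changed direction without passing in either setting were as follows. E-boxes between sets went to -1.03 with 1000 regions, -0.448 with sharing by summits within 100 bp, -3.35 with no overlap among 2000, -0.351 past rank 272 and -0.840 with CACGTG counted. Promoters went to -0.578 between sets with 1000 regions, to -0.226 (no overlap among 2000) and -3.93 (1000 bp upstream to 200 bp downstream) in replicate 1 against shared, and to 5.25 with 300 in replicate 2 against shared. Repeated summits went to 1.59 (300 regions) and 0.586 (summits within 100 bp) in replicate 1 against shared, 1.19 and 0.00759 against lower-ranked, and, with 1000 regions, -0.892 and -0.0581 in replicate 2 against the same lists. Small RNA genes went to 2.36 (no overlap among 2000) and 0.201 (past rank 272) between sets, and -0.119 past rank 272 in replicate 2 against shared. In replicate 2 against shared, G+C went to -0.516 past rank 272 and -0.156 at summits without a counted E-box, coding exons to -1.34 with 300 regions, and intergenic summits to 1.00 with 300, 0.253 by summits within 100 bp and 1.80 with no overlap among 2000. E-boxes by rank in the other replicate lost the call in replicate 2 past own rank 272 (12.6). The cause of these changes was not tested. No paired analysis was possible because both replicates form 1 group and each set is defined from both lists, and for the same reason neither replicate was left out.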
